A study of Mus musculus with 3 samples.

Results

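EphB receptors and ephrin-B ligands are the 8 genes Ephb1, Ephb2, Ephb3, Ephb4, Ephb6, Efnb1, Efnb2 and Efnb3, and the Atoh7 peaks around them were collected in the embryonic mouse retina. A peak was counted for a gene when its midpoint lay inside the RefSeq gene body on mm10 or within 100 kb of either end. By this rule 4 of the 3668 peaks of the list were counted for the family, at 3 of its 8 genes, where 34.9% of all protein-coding genes had a peak. Only 2 of these 4 peaks had a member as their nearest protein-coding gene. Atoh7 is a basic helix-loop-helix transcription factor of neurogenic retinal progenitors, and the study mapped where it sits by CUT&RUN, in which an antibody tethers a nuclease that releases the DNA beside the bound protein. The samples were 3 libraries of C57Bl6/J retina at embryonic day 14, of which 2 used an antibody to Atoh7 and 1 used IgG. The labels name no other genotype or treatment, and nothing in them tells if different animals gave the Atoh7 libraries. The deposited values are a single list of peak positions and widths with no height and no value per library. Read depth is therefore unknown, spread between replicates could not be measured, the IgG background is not analysed here, and the tissue could not be checked against marker expression.

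Eph receptors are receptor tyrosine kinases, and their ephrin ligands stay attached to the cell that makes them. B-class ephrins span the membrane, so contact between cells can signal into the receptor cell and back into the ligand cell. In the developing retina EphB receptors are known for higher levels ventrally and ephrin-B ligands for higher levels dorsally. The same molecules steer ganglion cell axons across the retina, at the optic chiasm and along the mediolateral axis of the superior colliculus.

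The only peak at a start site in the family lay at Ephb3, and the part of it that could be searched held a pair of E-boxes. That part was 165 of its 260 bases, and the rest lay outside the promoter window. The E-box, CANNTG on either strand, is the hexamer that basic helix-loop-helix proteins bind. The 250 bases before the RefSeq start site of Ephb3 (GRCm38.p6, the assembly that mm10 names; chromosome 16, plus strand) are shown because the peak covers bases 1 to 165 of them. The 250 bases before the start of Srrt (chromosome 5, minus strand) are shown because a peak counted for Ephb4 covers that start instead. Both run 5′ to 3′, and capitals mark each CANNTG.
Ephb3: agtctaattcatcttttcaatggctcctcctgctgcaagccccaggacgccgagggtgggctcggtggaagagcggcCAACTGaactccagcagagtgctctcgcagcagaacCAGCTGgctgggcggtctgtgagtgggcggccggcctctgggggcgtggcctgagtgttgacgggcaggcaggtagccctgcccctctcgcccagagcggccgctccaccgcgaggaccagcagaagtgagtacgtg
Srrt: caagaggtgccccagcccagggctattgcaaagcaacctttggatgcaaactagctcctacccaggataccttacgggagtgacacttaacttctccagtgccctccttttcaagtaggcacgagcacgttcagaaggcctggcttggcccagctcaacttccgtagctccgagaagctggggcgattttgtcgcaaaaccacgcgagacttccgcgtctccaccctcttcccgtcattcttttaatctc

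In Ephb3 the E-boxes began at bases 78 and 114 of this window, 173 and 137 bases before the start site, and both lay under the peak. The RefSeq tables differ on where Ephb3 begins, since the gene body starts at 21204620 and the start site of the promoter table is 21204795, so both hexamers lie inside the annotated body. The first read CAACTG. The second was a CAGCTG, whose central bases make it identical on both strands. The Srrt window held no CANNTG, which says only that these letters are absent from it. Promoter windows of 300 bases (250 before and 50 after a start) were in the RefSeq table for 7 of the 8 members, all but Efnb3. Over 32619 such windows, 72.3% held a CANNTG and 16.4% held CAGCTG. Among the 898 windows that a peak overlapped, the shares were 67.1% and 28.0%. Base composition moved with these shares, since the median window was 53.0% G and C over all windows and 63.0% where a peak overlapped, and its part in the difference was not tested. The Ephb3 window was 66.7% G and C and was the only member window with CAGCTG. It held 2 CANNTG, where the mean was 1.39 over all windows and 1.18 where a peak overlapped. Of the other members, Ephb2, Ephb4, Ephb6 and Efnb2 had 1 CANNTG each and Ephb1 and Efnb1 had 0. In Ephb2 and Efnb2 that hexamer was CACCTG, counted together with its reverse complement, which 20.3% of all windows held. No member window held CATATG or held CAGATG on either strand.

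**Figure D1:**
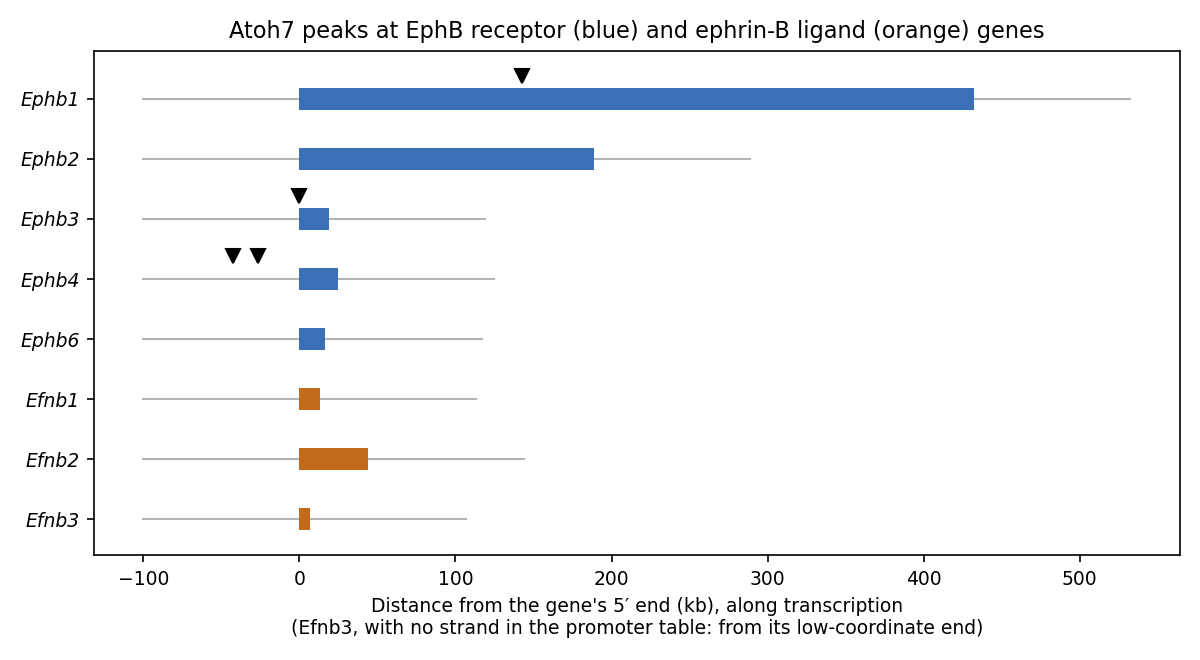
Position of Atoh7 peaks (triangles) at the 5 EphB receptor genes (blue bars) and 3 ephrin-B ligand genes (orange bars), with grey lines for the 100 kb searched on each side, in kb from the 5′ end of each gene (from the low-coordinate end for Efnb3, which has no strand in the promoter table). Ephb1 has 1 peak inside its body, Ephb3 has 1 at its 5′ end, Ephb4 has 2 upstream and the other 5 genes have none.

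Ephb3 encodes a receptor that, with Ephb2, helps ganglion cell axons reach the optic disc. Its body spans 18.7 kb (chr16:21204620-21223309), and its peak at chr16:21204450-21204709 was centred 40 bp outside the body and 216 bp upstream of the start site in the promoter table. The peak overlapped the body. At 260 bp it was narrow, since only 22.9% of peaks were as narrow or narrower and the median width of the list was 381 bp. No protein-coding gene was nearer to it than Ephb3. A peak overlapped 2.75% of all RefSeq promoter windows, and 1 of the 7 member windows.

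Ephb1 encodes the receptor that marks ganglion cells of the ventrotemporal retina, whose axons turn back at the chiasm to stay on the same side of the brain. Its body is the longest of the family, at 433 kb (chr9:101922128-102354693, minus strand), and it held the only peak centred inside a member gene. That peak, at chr9:102211337-102212183, was 847 bp wide, and 98.1% of all peaks were as narrow or narrower. It lay 143 kb downstream of the Ephb1 start site. It also lay inside Gm31233, a long noncoding RNA gene of 25 kb on the opposite strand within Ephb1, 1382 bp downstream of that gene's start. Peak positions carry no strand, so the list does not say to which of these genes the peak belongs.

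Ephb4 encodes a receptor best known from veins, where it pairs with ephrin-B2 of arteries. It had the most peaks of the family, 2, but neither was nearest to it. The peak at chr5:137307501-137308139 (639 bp) was centred 42.3 kb upstream of Ephb4 and 146 bp upstream of the start of Srrt, a gene for an RNA-processing protein, and covered the whole Srrt promoter window. Srrt, Trip6, Slc12a9, Ufsp1 and Ache all lay nearer to it than Ephb4 did. The peak at chr5:137323088-137323502 (415 bp) was centred 26.8 kb upstream of Ephb4, inside Slc12a9, a transporter family gene, and 10.3 kb downstream of the Slc12a9 start. Slc12a9, Trip6 and Srrt lay nearer to it. The window searched for Ephb4 (chr5:137350109-137374522 and its flanks) touched 6 other protein-coding genes, against 0 for Ephb1 and 1 for Ephb3. The windows of the members without a peak touched 8 (Ephb2), 5 (Ephb6), 1 (Efnb1), 1 (Efnb2) and 9 (Efnb3).

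The remaining receptors, Ephb2 and Ephb6, had no peak by the rule. Ephb2, a receptor of ventral ganglion cell axons, has a body of 189 kb (chr4:136647536-136836326). The nearest peak was centred 212 kb from it, inside Zbtb40, and Epha8 lies between them. Ephb6 encodes a receptor whose kinase domain lacks activity, in a body of 16.7 kb (chr6:41603834-41620509). It lay in the longest stretch without a listed peak of the 8 genes, 6.64 Mb that held 76 protein-coding genes, and its nearest peak was 1800 kb away, inside Mrps33.

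None of the 3 ligand genes had a peak within 100 kb, where 34.9% of all protein-coding genes did. Among genes of like length the share with a peak was 36.9% for Efnb1, 36.1% for Efnb2 and 37.2% for Efnb3. Efnb1, an X-linked ligand gene needed for craniofacial development, spans 13.0 kb (chrX:99136061-99149022), and its nearest peak, 177 bp wide, was 333 kb away. Efnb2, the ligand that chiasm glia present to Ephb1-bearing axons, spans 44.0 kb (chr8:8617235-8661242) and had its nearest peak 1510 kb away, inside Myo16. Efnb3, a midline barrier ligand of the spinal cord, is the shortest member at 7.06 kb (chr11:69554092-69561150). It came closest to having a peak, with one inside Kdm6b centred 136 kb away, and 9 protein-coding genes lay nearer to that peak. Just inside the 100 kb limit the most distant counted peak was that of Ephb4 at 42.3 kb, and just outside it were a peak at Pop7, 128 kb from Ephb4, and the Kdm6b peak. No peak fell between these distances.

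**Figure D2:**
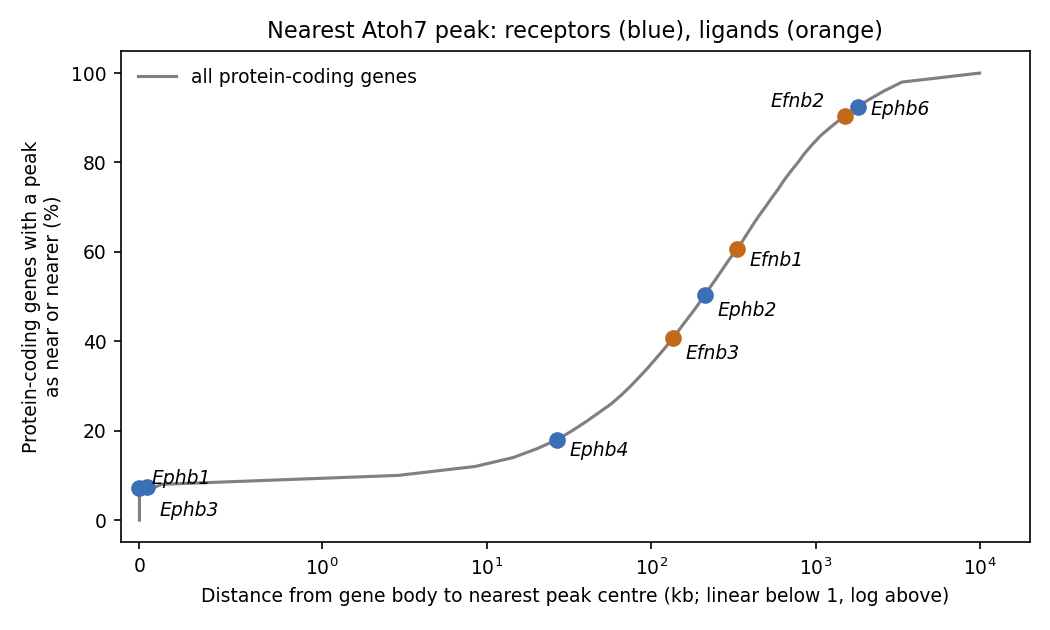
Distance from each gene body to the nearest Atoh7 peak centre (kb, linear below 1 and log above) against the percentage of all protein-coding genes with a peak as near or nearer (grey line), with receptors in blue and ligands in orange. Ephb1 and Ephb3 sit at the low end of the line, at 7.17% and 7.50%, and Efnb2 and Ephb6 near its top, at 90.5% and 92.5%.

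Within 100 kb the family's number of genes with a peak was close to the background over all protein-coding genes. Of 21631 protein-coding genes on chromosomes 1 to 19 and X, 34.9% had at least 1 peak inside or within 100 kb, and 3 of the 8 members did (37.5%, 95% exact Clopper-Pearson interval 8.52 to 75.5%). At the shares of their own length classes, 2.88 of 8 would have one. The class under 20 kb, at 32.2%, includes genes shorter than any member. For the members in that class, the shares among genes of like length were higher, 36.5% to 37.2%. A peak inside the gene body was found in 7.17% of all protein-coding genes and in 1 of the 8 members. Counting each peak only for its nearest protein-coding gene within 100 kb, 11.1% of all genes and 2 of the 8 members, Ephb1 and Ephb3, had a peak. With a distance of 50 kb 3 members had a peak against 24.4% of all genes, and with 10 kb 2 members against 12.4%, so the shares lay further apart than at 100 kb. The interval covers counting alone.

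Gene length set how much sequence was searched, from 207 kb for Efnb3 to 633 kb for Ephb1. The 8 windows came to 2345 kb with 4 peaks, a rate of 0.171 peaks per 100 kb (95% exact Poisson interval 0.0465 to 0.437), where all protein-coding genes together had 0.225. The rate over all genes counts a peak, and searched sequence, once for every gene whose window holds it. Its 12109 counts come from at most 3662 peaks, so it is not a plain density of peaks along the genome. The 4 counts of the family are 4 distinct peaks. The direction of the difference between family and background turned with 50 kb flanks (0.259 against 0.230) and with only the wider 50% of peaks (0.128 against 0.106). The family stayed below with 10 kb flanks (0.221 against 0.228) and with any overlap of 1 bp (0.171 against 0.226). It also stayed below the rate of genes of all types (0.171 against 0.196). The order of the members by rate was not their order by length. Ephb4 had 0.891 peaks per 100 kb searched, a rate that 8.98% of all genes matched or passed. Ephb3 had 0.457, which 22.9% matched or passed, and Ephb1, the longest, had 0.158, which 34.5% matched or passed. Each of these rates rests on 1 or 2 peaks, so their order is within counting error. Only 34.9% of all genes had any peak, so the rate of Ephb1 was near the lowest among genes with a peak. Genes with bodies over 100 kb together had 0.166.

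Among genes with a body within 1.5-fold of the length of Ephb1, 48.0% of 448 had a peak by the same rule, with a mean of 0.940 peaks, and 38.8% had a peak inside the body. For Ephb2 the shares were 42.5% of 1210 genes and 24.8%. For the 6 shorter members the share of genes of like length with a peak lay between 36.1% and 37.2%, and the share with a peak inside the body between 2.98% and 8.22%. A median gene of like length had 0 peaks for every one of the 8. Over all genes a peak in the body was thus more common the longer the gene. With flanks of 100 kb the share differed less over the lengths of the members, from 36.1% to 48.0%. By length class it was 32.2% for bodies under 20 kb and 43.8% for bodies over 100 kb. The former class includes bodies of at most 1.69 kb, shorter than any member. These had the lowest share of the 10 groups of equal size, 12.0%.

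**Figure D3:**
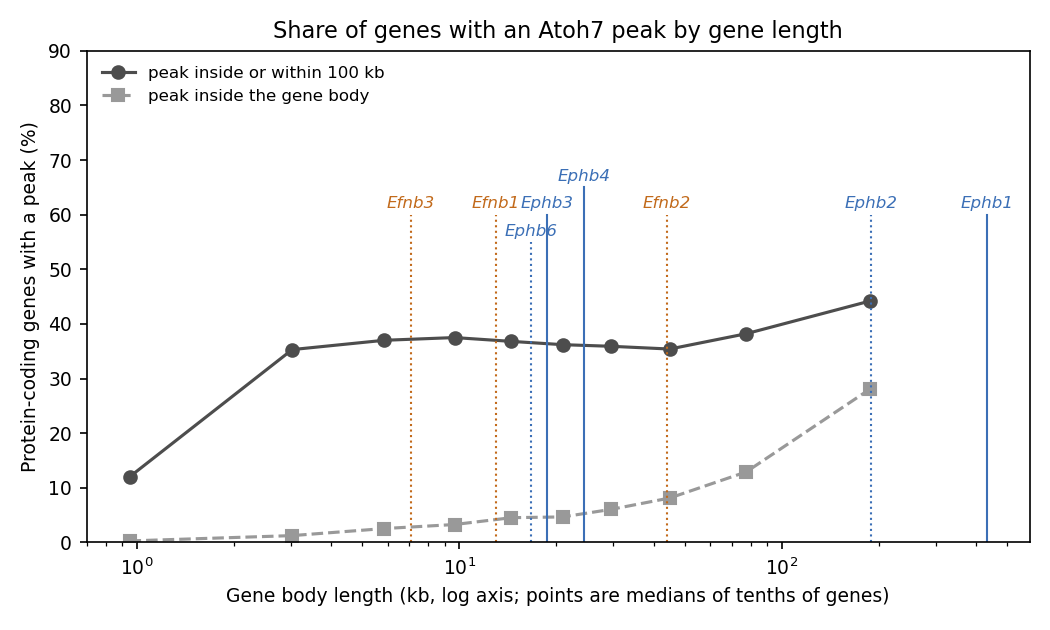
Percentage of protein-coding genes with an Atoh7 peak by body length (kb, log axis), each point 1 of 10 groups of equal size by length, at its median, for peaks inside or within 100 kb (circles) and inside the body (squares). Vertical lines mark the members (receptors blue, ligands orange), solid for the 3 with a peak within 100 kb and dotted for the 5 without; in the longest of these groups 44.2% of genes had a peak within 100 kb and 28.1% had one inside the body.

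Receptors and ligands were searched over unequal lengths. The 5 receptor windows came to 1681 kb with 4 peaks, or 0.238 per 100 kb (95% exact Poisson interval 0.0648 to 0.609). The 3 ligand windows came to 664 kb with 0 peaks, an interval of 0 to 0.556. At the rate of all protein-coding genes, which counts a shared peak once per gene, these windows would hold 3.79 and 1.5 peaks. The intervals overlap over most of their range, and the difference between receptors and ligands was not tested.

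The wider surroundings of the members also differed. Within 1 Mb of the gene there were 10 peaks for Efnb3, 6 each for Ephb2 and Ephb4, 5 for Ephb3, 3 each for Ephb1 and Efnb1, and 0 for Ephb6 and Efnb2. Over all protein-coding genes the median was 3 (quartiles 1 and 6). Efnb3 and Ephb2 thus lacked a peak by the rule in neighbourhoods with at least as many peaks as the upper quartile, while 15.1% of genes had, like Ephb6 and Efnb2, no peak within 1 Mb. The numbers in the peak names rise along the genome and 51.1% of them are present in the list. Between the listed peaks on either side of each member's window, 1 to 5 numbers were absent, 5 of them around Ephb2 and 1 around Efnb3. Where the unlisted numbers lie within those stretches is not known, so a member without a listed peak is not shown to be free of signal.

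The sister class, the EphA receptors and ephrin-A ligands, sets out topography along the other retinal axis, from nasal to temporal. Of its 14 genes 8 had a peak by the same rule (57.1%, 95% exact Clopper-Pearson interval 28.9 to 82.3%), where their length classes would give 5.31, with 13 peaks in all and 0.251 per 100 kb searched (95% exact Poisson interval 0.134 to 0.430). Only 4 of the 14 were the nearest protein-coding gene to a peak, together for 7 of the 13 peaks. Efna5, a repellent ligand of the colliculus, had 3 peaks, all inside its body of 278 kb. Efna2, Epha2 and Epha5 had 2 each, those of Epha5 both inside the gene and those of Efna2 both outside it. The Epha8 peak, 91.9 kb from that gene, was the Zbtb40 peak that lay nearest to Ephb2.

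Of 26 genes for signalling partners of Eph receptors and ephrins, 10 had a peak, where their length classes would give 10.6. Of the 26, 8 were the nearest protein-coding gene to a peak, together for 12 of the 16 peaks. Kalrn, which encodes an exchange factor acting below EphB receptors in dendritic spines, had 5 peaks, 4 of them inside its 604 kb body. Grb10, an adaptor gene, and Vav3, an exchange factor gene, had 2 each, and Arhgef15 had 1. Of 17 genes that pattern the retina from dorsal to ventral, 6 had a peak, where their length classes would give 5.98. These were Bmpr1b, a BMP receptor gene (2 peaks), Zic2, the factor gene needed for ipsilateral ganglion cells that express Ephb1 (1 peak, 24.5 kb away), Vax1, Vax2, Aldh1a3 and Aldh1a2. Vax2, a homeobox gene of the ventral retina upstream of EphB receptors, had its peak inside the gene and was the only one of the 17 nearest to its peak.

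Slit and Robo genes, the secreted repellents and their receptors, had a peak in 3 of 7 members (Slit1 with 9, Robo1 and Robo2 with 5 each), where their length classes would give 2.83, at a rate of 0.375 per 100 kb searched (95% exact Poisson interval 0.226 to 0.585). The interval treats peaks as independent, though 9 of the 19 lay at Slit1 alone, so it may be too narrow. The 3 genes were nearest to 18 of the 19 peaks. Genes for netrins and for their receptors had a peak in 10 of 13 (76.9%, 95% exact Clopper-Pearson interval 46.2 to 95%), where their length classes would give 5.26, among them Neo1 and Dscam with 3 each and Ntng2 and Ntn4 with 2 each, at 0.273 per 100 kb (0.159 to 0.436). Only 5 of these 13 genes were the nearest protein-coding gene to a peak, together for 8 of the 17 peaks. Neo1 and Ntng2 were nearest to none of theirs. The EphB and ephrin-B rate of 0.171 was below the rates of the Slit and Robo list and of the netrin list, with intervals that overlapped, and these differences were not tested. Median bodies were 326 kb for the Slit and Robo genes and 162 kb for the netrin genes, against 21.6 kb here, though both lists also hold short genes such as Robo4 (12.1 kb) and Ntn3 (5.56 kb).

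**Figure D4:**
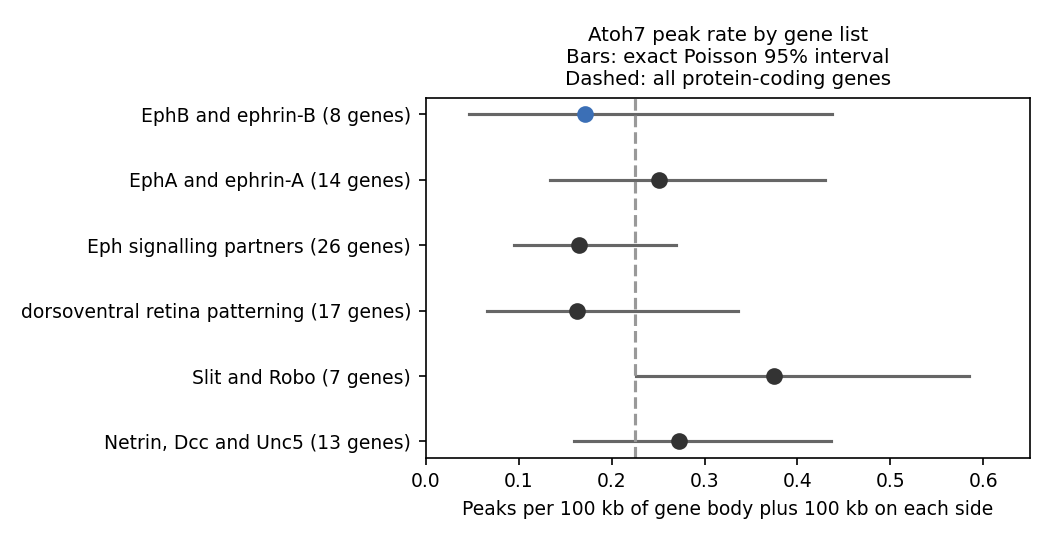
Atoh7 peaks per 100 kb of searched sequence (gene body plus 100 kb on each side) for the EphB and ephrin-B genes (blue) and 5 other gene lists (black), with exact Poisson 95% intervals and the rate over all protein-coding genes (dashed, 0.225). The EphB and ephrin-B interval, 0.0465 to 0.437, spans the dashed line and overlaps those of the other lists. The dashed rate counts a peak, and searched sequence, once for every gene whose window holds it.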

How the data were processed

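The authors deposited 1 table of peaks with chromosome, start, end, width in bp and name, per the file headers, and every name begins with Atoh7_R1. Per the submitters' processing notes, the mm10 build was used with MACS2 2.2.7.1, Bowtie2 2.3.5, Picard 2.0.1, bedtools and SAMtools. Their settings, the step that left 3517 peak numbers out and the use of replicate 2 and IgG are not given in the sources used here. Depth per library is unknown.

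Peaks on chromosomes 1 to 19 and X were used (3662, leaving out 6). Gene bodies came from the RefSeq table of GRCm38.p6, which gives no exons, and start sites, strands and sequences from the RefSeq promoter table of that assembly. All 8 members were found in the former. A peak inside several genes was assigned, as nearest, to the gene with the lowest start. Named were all 8 members, the genes nearer than a member to a counted peak, and up to 4 genes per other list with the most peaks. Aldh1a2, Aldh1a3, Epha8, Robo4, Ntn3, Gm31233 and the genes beside uncounted peaks were named after their values were seen. The members and lists were chosen with earlier results of these data known. No test was run. Members were set beside the background over all protein-coding genes. Receptors, ligands and the other gene lists were set beside one another by counts, rates and intervals only. Counting was checked against a plain loop on simulated peaks. Calculations ran in pandas 2.3.3 and numpy 2.4.6 under Python 3.11.15, with intervals from scipy 1.17.1 and figures from matplotlib 3.10.9.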

Additional observations from a re-analysis of the deposited data

How the results depend on the processing

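Of 18 recomputed values, 14 stayed within 1.5 times the reported one. Some of these could not move. The rate over the 8 genes does not depend on which genes form the background. Both peaks nearest to a member lay within 10 kb of it, so a limit of 10 kb on the nearest gene kept them. With a distance of 10 kb in place of 100 kb the number of peaks at the 8 genes was 2, those of Ephb1 and Ephb3, against 4, and 2 of 8 members had one where 12.4% of all genes did. The rate at 10 kb was 0.221 peaks per 100 kb searched, against 0.228 for all protein-coding genes. With 50 kb all 4 peaks were counted and the rate was 0.259 peaks per 100 kb searched, above the 0.230 of all protein-coding genes, where with 100 kb it was below them. The shorter flanks alone raised it, since no peak was lost. With any overlap of 1 bp in place of the midpoint the peaks in member bodies were 2 rather than 1, because the Ephb3 peak then counted. With only the wider 50% of peaks, the peaks nearest to a member were 1 rather than 2, because that of Ephb3 was left out, and the rate, 0.128 per 100 kb searched, was above the 0.106 of all genes. Leaving out each Atoh7 library was not run, and no paired analysis was possible because the table holds no value per library. Peak height and depth are unknown, and with 4 peaks no rate in this family is known to better than its interval.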
